A study of Mus musculus with 2 samples.

Results

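Collagens and laminins are the main structural proteins of the extracellular matrix, and their genes were followed across the cell types of the embryonic mouse cortex. The genes were taken by symbol, as those named *Col*, a number, *a* and a number, or *Lama*, *Lamb* or *Lamc* and 1 digit. This gave 55 genes, 44 collagens and 11 laminins, of 32285 genes listed in each library. Of the 55, 41 had at least 10 unique molecular identifiers (UMIs) in at least 2 of the sums described below and entered the tests. The other 14, among them *Col4a3*, *Col10a1*, *Col24a1* and *Lama3*, held 664 of the 38590 UMIs of all 55 genes. The data come from single-cell RNA sequencing of the cerebral cortex of wild-type (WT) mouse embryos at embryonic day (E) 16.5. The embryos are the WT controls of a line that the labels name EomesDot, in which Cre recombinase is driven by *Eomes*, a gene of intermediate progenitor cells. Both libraries belong to this 1 group and nothing was treated, so every comparison below lies between cell types. Tissue was dissociated with papain and sequenced with a droplet kit that reads the 3' end of each transcript. The labels do not say whether a library holds 1 embryo or several, and the replicate numbers 1 and 2 only name the libraries. The library is a term of the fits, so that a shift common to all classes of a library is taken out. P-values rest on how differences between classes vary between these 2 libraries, pooled over the classes fitted. That spread may be technical, and it is not a measure of variation between embryos.

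A collagen molecule is a triple helix of 3 alpha chains, each the product of a *Col* gene. Fibrillar collagens such as types I, III and V assemble into the fibres of connective tissue, whereas type IV collagens form the flexible sheet of the basement membrane, the thin layer of matrix on which epithelia, vessels and the brain surface rest. Laminins are cross-shaped trimers of 1 alpha, 1 beta and 1 gamma chain and form the other sheet of the basement membrane, where integrins and dystroglycan bind them. In the developing cortex the meninges lay down fibrillar collagen and the pial basement membrane, radial glia hold on to that membrane with their end-feet, and endothelial cells and pericytes share the basement membrane of the vessels.

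The start regions of 5 collagen genes are shown because these genes set the cell types apart in the results that follow. They are from RefSeq on build GRCm38.p6 and lie upstream of the start site given for the named gene. The *Col4a2* stretch falls within the span of *Col4a1* on the other strand, and those of *Col4a6* and *Col4a5* fall partly or wholly within the full spans of their own genes, which reach beyond these start sites. Capitals mark a CCAAT box (CCAAT, or ATTGG on the other strand) or a GC box (GGGCGG, or CCGCCC on the other strand), and no match overlaps another. The first pair gives 250 bases before the start site of *Col1a2*, a chain of type I collagen, at chr6:4505368-4505617 on the plus strand, and of *Col3a1*, the chain of type III collagen, at chr1:45311288-45311537 on the plus strand. The last 3 give 30 bases each from the start regions of type IV genes that lie in head-to-head pairs, at chr8:11312757-11312786 (*Col4a2*, plus strand), chrX:141474080-141474109 (*Col4a6*, minus strand) and chrX:141475377-141475406 (*Col4a5*, plus strand).
Col1a2: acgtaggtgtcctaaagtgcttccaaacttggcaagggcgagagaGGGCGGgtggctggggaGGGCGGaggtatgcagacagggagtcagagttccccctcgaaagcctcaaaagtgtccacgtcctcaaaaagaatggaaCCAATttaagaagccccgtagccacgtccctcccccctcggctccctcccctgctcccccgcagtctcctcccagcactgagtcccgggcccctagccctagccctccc
Col3a1: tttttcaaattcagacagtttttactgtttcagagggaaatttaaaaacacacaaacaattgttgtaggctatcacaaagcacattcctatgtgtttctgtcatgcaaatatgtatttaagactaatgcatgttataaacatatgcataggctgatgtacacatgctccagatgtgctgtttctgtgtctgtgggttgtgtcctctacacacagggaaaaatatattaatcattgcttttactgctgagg
Col4a2: CCGCCCgaggagctccCCAATttgttggcg
Col4a6: cagcaggcagccCCGCCCcgtccccctcca
Col4a5: ccagcggggaggGGGCGGtgcagggaagag

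*Col4a1* and *Col4a2* lie on opposite strands with start sites at 11312826 and 11312805 of chromosome 8, so that their first bases overlap by 22. *Col4a6* and *Col4a5* are arranged likewise on the X chromosome, with 1342 bases between the start sites at 141474076 and 141475419. In the 250 bases before its start site *Col1a2* had 1 CCAAT box and 2 GC boxes at a GC content of 62%, while *Col3a1* had neither motif at 35.2%. The window of *Col4a2* held 1 CCAAT box and 2 GC boxes at 73.6%, that of *Col4a1* 1 CCAAT box and no GC box at 74.4%, that of *Col4a5* 1 of each at 54%, and that of *Col4a6* 1 GC box at 47.6%. A CCAAT box was found in 33.8% of 32851 windows of the same length from 27025 gene symbols, a GC box in 32.7% and both in 11%, and the median GC content was 52.4%. Such a match is a string of letters and not a measured binding site. Windows were at hand for 40 of the 55 genes.

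The libraries held 9049 and 13556 barcodes and 46398156 and 64324236 UMIs. After filters on UMIs and mitochondrial share and the removal of 432 and 1111 likely doublets, 5534 and 9136 cells remained, with medians of 5493 and 4728 UMIs. Of the barcodes, 40 occurred in both libraries, 15 of them among the cells kept. The 55 genes made up 0.0431% and 0.0481% of the UMIs of these cells. Cells were assigned to 12 classes by counts of 8 marker genes per type, none of them a collagen or laminin gene, and each class is named as "like" its type. A median cell of the meningeal fibroblast-like class had 6 of its 8 markers, and one of the mural-like, endothelial-like and microglia-like classes all 8, with at most 2 of the 8 of each of the other non-neural types. Radial glia-like cells had a median of 6 of 8, intermediate progenitor cell (IPC)-like cells 4 of 8 beside 4 of the 8 upper-layer markers, and the neuron-like classes 3 to 5 markers of their own layer or region. Another 32.4% and 36.6% of cells passed no gate. UMIs were summed per library and class, and levels are given as CPM, for which the UMIs of every sum are scaled to the same total, for replicate 1 and then replicate 2. The kit counts 1 captured 3' end per transcript, so that CPM can be set side by side between genes irrespective of transcript length, although capture can differ between genes. These are counts per cell class, so the number of cells of a type does not enter them.

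Summed over all 55 genes, the meningeal fibroblast-like class was highest, with 9317 and 12340 CPM from 33 and 64 cells. Mural-like cells, the pericytes and smooth muscle cells that wrap vessels, held 6347 and 7457 CPM in 36 and 59 cells. Endothelial-like cells held 2045 and 2896 CPM in 37 and 85 cells. These levels did not overlap between the 3 classes, and collagens outweighed laminins in each, with 8057 and 10794 CPM of collagen against 1260 and 1545 CPM of laminin in the meningeal class. Meningeal fibroblast-like cells were 0.596% and 0.701% of the cells of the libraries and gave 27.7% and 31.1% of its collagen and laminin UMIs. Among neural classes radial glia-like cells were highest, at 649 and 645 CPM, followed by IPC-like cells at 361 and 323 CPM. Striatal neuron-like cells held 260.0 and 238 CPM, Cajal-Retzius-like cells 198 and 218, medial ganglionic eminence (MGE) interneuron-like cells 192 and 183, deep-layer neuron-like cells 153 and 152, and upper-layer neuron-like cells 148 and 160. The last 2 overlapped, and Cajal-Retzius-like cells, of which there were 20 and 32, were just above the MGE class. Erythroid-like cells, which should transcribe few of these genes, read 32.3 and 75.0 CPM, and microglia-like cells 61.8 and 89.2.

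**Figure D1:**
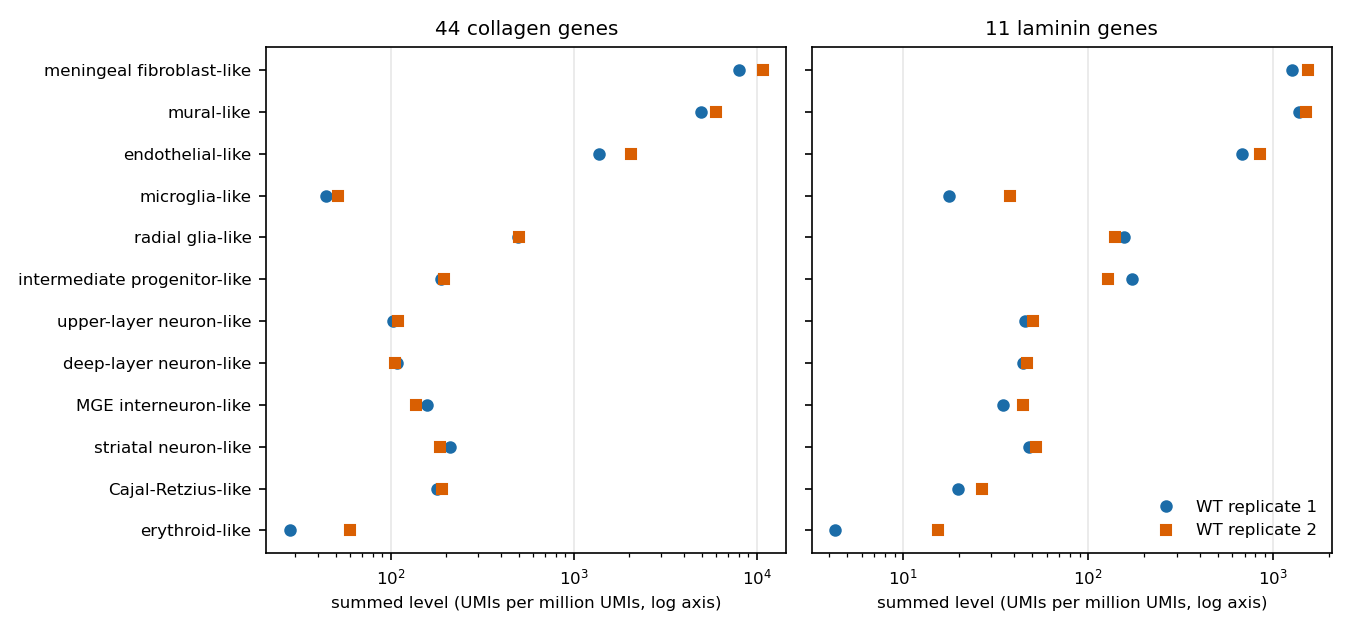
Summed level of the collagen genes and of the laminin genes in each of the 12 classes, in CPM on a log axis, with 1 point for each of the 2 libraries. Meningeal fibroblast-like cells lie highest for collagens (8057 and 10794 CPM), mural-like cells next, and the laminin levels of these 2 classes lie close together (1260 and 1545 CPM against 1373 and 1492 CPM).

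Which genes made up these sums differed by class. *Col3a1* and *Col1a2* led in meningeal fibroblast-like cells, with 19.7% and 21.4%, and 14.5% and 15.5%, of the class's collagen and laminin UMIs. In mural-like cells *Col4a1* alone made up 39.8% and 40.3%, and in endothelial-like cells *Col4a1* and *Col4a2* together led with 30.1% and 33.6%, and 27.2% and 25.5%. *Col22a1* ranked first in radial glia-like cells, *Lama2* led in IPC-like cells with 37.7% and 31.1%, and *Col11a1* led in upper-layer neuron-like and MGE interneuron-like cells. Of the 41 genes tested, 24 had their highest mean level in the meningeal fibroblast-like class, 8 in the mural-like, 6 in the radial glia-like, and 1 each in the endothelial-like (*Col15a1*), upper-layer neuron-like (*Col9a3*) and microglia-like class (*Col28a1*, at 0 and 5.41 CPM). The count filter can be met by the 2 sums of 1 class. *Col6a1*, with 91 and 126 UMIs in the meningeal class and at most 5 in any sum of another class, entered only in this way. For such genes the class with the highest level follows from the filter. They are part of this tally and of the counts and medians of the 41 genes below. The same filter held for all genes.

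**Figure D2:**
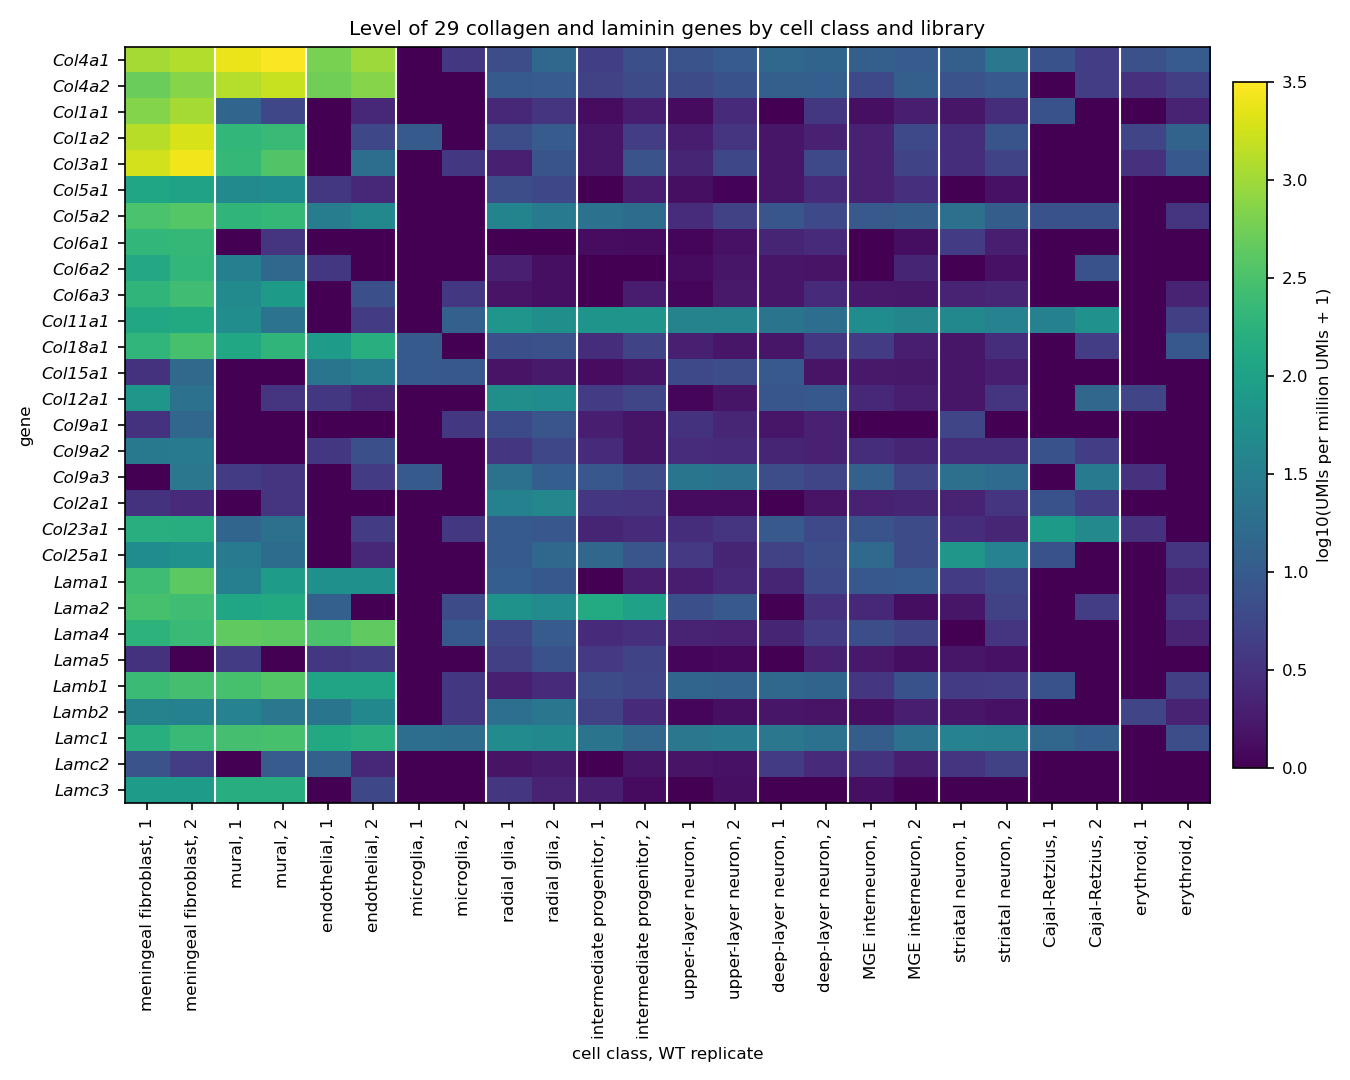
Level of 29 collagen and laminin genes (rows) in the 12 classes (columns, 2 libraries each) as log10 of CPM + 1. Brighter cells are higher levels. The fibrillar genes *Col1a1*, *Col1a2* and *Col3a1* are bright in the meningeal columns, and *Col4a1* and *Col4a2* in all 3 stromal classes. *Col2a1* is bright in the radial glia columns, and *Col12a1* in the radial glia and meningeal columns.

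The meningeal fibroblast-like class was compared with the endothelial-like class to ask which matrix genes differ between the coverings of the brain and the lining of its vessels. Of the 41 genes, 28 were higher in the meningeal class (24 collagens and 4 laminins) and 1, *Lama4*, was lower. For comparison, 10.7% of the 14912 genes tested were higher and 9.14% lower. The median log2 fold change of the 41 genes was 4.90, or 3.34 with the 6 genes that had no UMI in 1 class set to the bound that 3 UMIs allow, and that of all genes 0.03. Tests were of the quasi-likelihood kind in edgeR, their p-values were adjusted by Benjamini and Hochberg's method over all genes tested, and a gene was called at an adjusted p under 0.05. With DESeq2's Wald test *Lama4* was not called (DESeq2 adjusted p = 0.142).

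The chains of types I and III, the main fibrillar collagens, were close to absent from endothelial-like cells. *Col1a1*, which with *Col1a2* builds type I collagen, read 708 and 1059 CPM in meningeal fibroblast-like cells and 0 and 1.56 CPM in endothelial-like cells. The 2 meningeal sums lay far above both endothelial sums, a ratio of 919-fold (95% counting interval 164 to 36317, 945 UMIs against 1, edgeR adjusted p = 1.8e-22). *Col1a2* read 1350.4 and 1916 CPM against 0 and 4.69 CPM, a ratio of 564-fold (95% counting interval 193 to 2738, 1741 UMIs against 3, edgeR adjusted p = 9.9e-24). Where the lower class holds 1 to 3 UMIs, as here, the ratio of summed levels is given with an interval that covers counting error only. *Col3a1*, the most abundant of the 55 genes in meningeal cells, stood at 1839.6 and 2639 CPM there and 0 and 17.2 CPM in endothelial-like cells, and the log2 fold change was 7.95 ± 0.30 (SE, edgeR adjusted p = 4.1e-23). *Col5a2*, a chain of the type V collagen that starts fibrils, was present in both classes, with 320.1 and 374 CPM against 29.7 and 42.2 CPM and a log2 fold change of 3.34 ± 0.25 (SE, edgeR adjusted p = 4.8e-14).

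Almost every meningeal fibroblast-like cell carried *Col1a1*, *Col1a2* and *Col3a1*, while *Col5a1* was seen in 66.7% and 48.4% and *Col11a1* in 63.6% and 57.8% of them. *Col3a1* was seen in 100% and 96.9% of these cells and in 72.7% and 87.5% once every cell was thinned to 1500 UMIs. Erythroid-like cells, which should lack it, had a *Col3a1* UMI in 0.741% and 3.21% of cells at median depths of 2730 and 3045.5 UMIs, and upper-layer neuron-like cells in 0.989% and 3.0%. These 2 classes read 2.15 and 8.33 CPM and 1.28 and 4.72 CPM, so *Col3a1* in upper-layer neuron-like cells was below the erythroid level in both libraries and is not read as expression. Of all *Col1a1* UMIs of a library, 92.9% and 84.1% lay in the meningeal fibroblast-like class.

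Mural-like cells held fibrillar collagen at a middle level. *Col1a2* read 204 and 224 CPM in them, above endothelial-like cells by 72.7-fold (95% counting interval 24.4 to 356, 161 UMIs against 3, edgeR adjusted p = 8.3e-13) and below meningeal cells by a log2 fold change of 3.13 ± 0.17 (meningeal over mural, edgeR adjusted p = 5.4e-18). *Col3a1* stood at 217 and 352 CPM, and its log2 fold change over endothelial-like cells was 4.75 ± 0.42 (SE, edgeR adjusted p = 5.6e-12). The 2 chains of type I collagen differed in this class, since *Col1a1* read only 12.7 and 4.63 CPM in mural-like cells, and the log2 fold change was 7.0 ± 0.31 (SE, edgeR adjusted p = 1.1e-20) for meningeal over mural. Against endothelial-like cells *Col1a1* in mural-like cells did not pass the test, at a ratio of 8.13-fold (95% counting interval 0.986 to 374, 6 UMIs against 1, edgeR adjusted p = 0.191).

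Type IV collagen, the sheet of the basement membrane, ran in another order. *Col4a1* read 2524 and 3003 CPM in mural-like cells, 1053 and 1243 CPM in meningeal fibroblast-like cells and 616 and 973 CPM in endothelial-like cells. The 3 classes did not overlap. The log2 fold change was 1.74 ± 0.13 (SE, edgeR adjusted p = 6e-14) for mural over endothelial, -1.08 ± 0.13 (SE, edgeR adjusted p = 9.9e-09) for meningeal over mural and 0.65 ± 0.13 (SE, edgeR adjusted p = 0.00022) for meningeal over endothelial. Its partner *Col4a2* read 1300.0 and 1587 CPM in mural-like, 503 and 719.9 CPM in meningeal and 557 and 737 CPM in endothelial-like cells. Here the last 2 overlapped and the gene was not called between them (log2 fold change 0.04 ± 0.13 SE, edgeR adjusted p = 0.915), while mural-like cells were higher than endothelial-like cells by 1.09 ± 0.12 (SE, edgeR adjusted p = 2.2e-09) and meningeal cells lower than mural-like cells at -1.06 ± 0.12 (SE, edgeR adjusted p = 6.8e-09). Both genes were seen in most vessel cells, *Col4a1* in 94.4% and 94.9% of mural-like and 86.5% and 88.2% of endothelial-like cells. In erythroid-like cells 2.22% and 3.67% had a *Col4a1* UMI.

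The second pair of type IV genes, *Col4a5* and *Col4a6*, was all but missing from vessel cells. *Col4a5* read 250.2 and 418 CPM in meningeal fibroblast-like cells, 6.37 and 4.63 CPM in mural-like cells and 0 and 3.12 CPM in endothelial-like cells. The log2 fold change of meningeal over mural was 6.16 ± 0.43 (SE, edgeR adjusted p = 9e-15), and the ratio of meningeal to endothelial was 175-fold (95% counting interval 48.1 to 1450.2, 360 UMIs against 2, edgeR adjusted p = 1.7e-16). *Col4a6* stood at 187 and 255 CPM in the meningeal class and had no UMI in either vessel class, which makes it at least 76.1-fold higher than in endothelial-like cells (edgeR adjusted p = 4.3e-14) and at least 56.2-fold higher than in mural-like cells (edgeR adjusted p = 5e-13). The bound takes 3 UMIs, over both libraries, as the level that a count of 0 still allows. The one other class with both genes at over 20 CPM was radial glia-like, at 53.8 and 61.5 CPM for *Col4a5* and 26.6 and 26.4 CPM for *Col4a6*. The genes of each head-to-head pair, whose start regions are printed above, thus shared their leading classes, *Col4a1* and *Col4a2* the stromal classes and *Col4a5* and *Col4a6* the meningeal and radial glia-like classes.

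**Figure D3:**
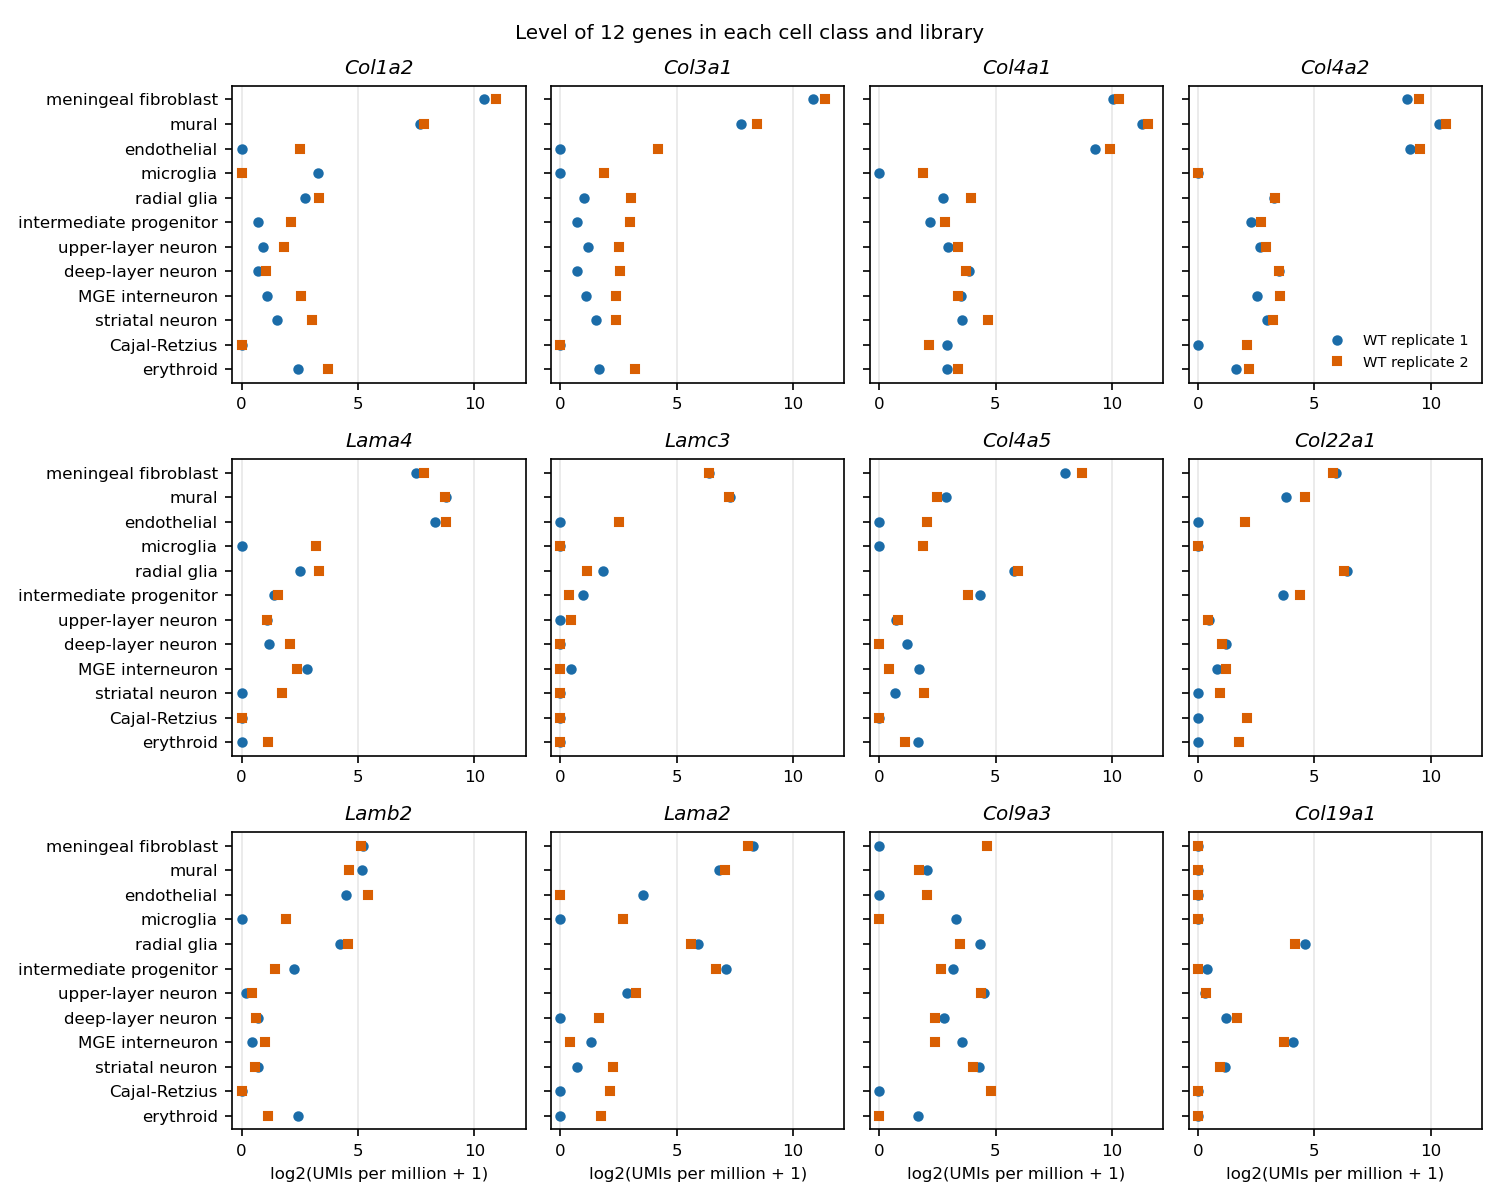
Levels of 12 collagen and laminin genes in the 12 classes, as log2 of CPM + 1 with 1 point per library. *Col4a1* and *Col4a2* are high in all 3 stromal classes, *Col1a2* and *Col3a1* highest in meningeal cells, *Col22a1* and *Col4a5* in radial glia-like and meningeal cells, *Lama2* in meningeal, mural and progenitor classes, and *Col19a1* in radial glia-like and MGE interneuron-like cells.

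The mural-like and endothelial-like classes were compared because both deposit the vessel basement membrane. Of the 41 genes, 20 were higher in mural-like cells (16 collagens and 4 laminins) and 1, *Col15a1*, was lower. Over all genes 7.18% were higher and 7.71% lower. The median log2 fold change was 1.58 for the 41 genes and -0.01 for all genes. With only these 2 classes in the fit, 16 collagen and laminin genes passed the count filter, and 12 of them were called, all higher in mural-like cells. *Col15a1* was not among the 16. *Col15a1*, a collagen found beside basement membranes, read 21.6 and 29.7 CPM in endothelial-like cells and had no UMI in mural-like cells, where it was at least 6.65-fold lower (edgeR adjusted p = 0.0017). The related *Col18a1*, whose tail yields endostatin, read 121 and 192 CPM in mural-like and 81.1 and 155 CPM in endothelial-like cells. These ranges overlapped and the gene was not called (log2 fold change 0.34 ± 0.29 SE, edgeR adjusted p = 0.536).

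Between meningeal fibroblast-like and mural-like cells, 22 of the 41 genes were higher in the meningeal class (20 collagens and 2 laminins), and *Col4a1*, *Col4a2* and *Lama4* were lower. Over all genes 6.65% were higher and 4.92% lower. The median log2 fold change was 1.61 for the 41 genes, or 1.39 with 5 genes at their bound, and 0.01 for all genes. Fitted without the library as a block, 20 were higher and 3 lower. Among those called higher, but not without the block (edgeR adjusted p = 0.061) or by DESeq2's Wald test (DESeq2 adjusted p = 0.799), was *Col8a1*, at 6.76 and 47 CPM in meningeal cells, but all of its UMIs there came from 1 cell in each library.

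The tested chains of type VI collagen, which forms beaded microfibrils, were *Col6a1*, *Col6a2* and *Col6a3*, and all 3 were highest in the meningeal class. *Col6a1* read 205 and 211 CPM there, 0 and 2.31 CPM in mural-like cells and no UMI in endothelial-like cells, against which it was at least 70.3-fold higher (edgeR adjusted p = 2.4e-12). Its ratio to mural-like cells was 156-fold (95% counting interval 27.7 to 6179, 217 UMIs against 1, edgeR adjusted p = 5.4e-11). *Col6a3* was spread more widely, with 194 and 263 CPM in meningeal, 44.6 and 78.7 CPM in mural-like and 0 and 6.25 CPM in endothelial-like cells. It exceeded the endothelial level by a log2 fold change of 6.07 ± 0.47 (SE, edgeR adjusted p = 1.3e-13) in meningeal cells and 3.99 ± 0.60 (SE, edgeR adjusted p = 2.1e-06) in mural-like cells. The transmembrane collagen *Col13a1* stood at 72.1 and 114 CPM in meningeal cells and at 0 in both vessel classes, at least 32.4-fold higher than in endothelial-like cells (edgeR adjusted p = 4.4e-07), a call that DESeq2's Wald test did not make (DESeq2 adjusted p = 0.506). Another transmembrane collagen, *Col23a1*, read 158 and 149 CPM in meningeal and 12.7 and 18.5 CPM in mural-like cells, and the log2 fold change was 3.43 ± 0.39 (SE, edgeR adjusted p = 4.8e-09). *Col26a1* read 295 and 315 CPM in meningeal, 70.1 and 64.8 CPM in mural-like and 13.5 and 7.81 CPM in endothelial-like cells, and the meningeal over mural log2 fold change was 2.37 ± 0.27 (SE, edgeR adjusted p = 5.3e-09).

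Laminin alpha chains divided the stromal classes. *Lama4*, the alpha chain of vessel laminin, read 437 and 419 CPM in mural-like, 313 and 439 CPM in endothelial-like and 180.4 and 225 CPM in meningeal fibroblast-like cells. Mural-like and endothelial-like cells overlapped and the gene was not called between them (log2 fold change 0.10 ± 0.16 SE, edgeR adjusted p = 0.782), and the meningeal class was lower than either, at -0.78 ± 0.17 (SE, edgeR adjusted p = 0.00044) against endothelial-like and -0.88 ± 0.17 (SE, edgeR adjusted p = 0.00022) against mural-like cells. DESeq2's Wald test gave the same direction and called neither (DESeq2 adjusted p = 0.142 and 0.0885). *Lama1*, the alpha chain of the first embryonic laminin, was highest in the meningeal class instead, with 255 and 413 CPM in meningeal, 31.9 and 85.6 CPM in mural-like and 56.7 and 56.2 CPM in endothelial-like cells. Its log2 fold change was 2.72 ± 0.28 (SE, edgeR adjusted p = 4.3e-10) for meningeal over endothelial and 2.65 ± 0.29 (SE, edgeR adjusted p = 2.9e-09) for meningeal over mural. *Lama2*, known from muscle and nerve, read 304 and 268 CPM in meningeal, 112 and 132 CPM in mural-like and 10.8 and 0 CPM in endothelial-like cells. It passed the test against endothelial-like cells in both classes, at 6.25 ± 0.45 (SE, edgeR adjusted p = 1.3e-14) for meningeal and 4.86 ± 0.59 (SE, edgeR adjusted p = 1.5e-08) for mural-like cells. *Lama5*, another alpha chain of vessel basement membranes, was low throughout, with 3.19 CPM or less in every stromal sum.

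Of the beta and gamma chains, *Lamb1*, *Lamb2* and *Lamc1* were found in all 3 stromal classes. *Lamb1* read 306 and 368 CPM in mural-like, 239 and 290.3 CPM in meningeal and 108 and 111 CPM in endothelial-like cells, with log2 fold changes over endothelial-like cells of 1.58 ± 0.19 (SE, edgeR adjusted p = 2.6e-08) for mural-like and 1.41 ± 0.19 (SE, edgeR adjusted p = 1.8e-07) for meningeal cells. *Lamc1*, the common gamma chain, was present in every class but erythroid-like cells of replicate 1, and reached 296 and 305 CPM in mural-like and 132 and 162 CPM in endothelial-like cells. Mural-like cells were higher by 0.94 ± 0.21 (SE, edgeR adjusted p = 0.00076). *Lamc3*, the gamma chain linked to malformations of the human occipital cortex, was found mainly in mural-like cells at 153 and 150.4 CPM and meningeal cells at 83.4 and 82.2 CPM, with 0 and 4.69 CPM in endothelial-like cells. The ratio of mural to endothelial was 51-fold (95% counting interval 17 to 251, 113 UMIs against 3, edgeR adjusted p = 1.3e-08). *Lamb2* overlapped between the 3 classes, with 36.1 and 33.6 CPM in meningeal, 35 and 23.1 CPM in mural-like and 21.6 and 42.2 CPM in endothelial-like cells.

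Against the neural classes, the stromal classes were higher in 24 of the 41 genes (17 collagens and 7 laminins) and lower in 2, *Col11a1* and *Col19a1*. The stromal value is the mean of the meningeal, mural-like and endothelial-like classes on the log scale and the neural value that of 6 progenitor and neuron classes. Over all genes 21.3% were higher and 32.6% lower, and the median of all genes was -0.33 against 3.02 for the 41 genes. With the scaling factors of DESeq2 the median of all genes was -0.17. The firmest differences were basement membrane genes present in all 3 stromal classes, namely *Col4a1* at 7.12 ± 0.09 (SE, edgeR adjusted p = 5.6e-42), *Col4a2* at 6.84 ± 0.08 (SE, edgeR adjusted p = 4e-41) and *Lama4* at 7.0 ± 0.14 (SE, edgeR adjusted p = 3.3e-34). *Col18a1* followed at 6.35 ± 0.19 (SE, edgeR adjusted p = 3.5e-28) and *Lamb1* at 5.41 ± 0.14 (SE, edgeR adjusted p = 6.3e-30). The fibrillar *Col11a1* went the other way at -0.93 ± 0.31 (SE, edgeR adjusted p = 0.00976), although the meningeal class alone held 124 and 134 CPM, above every other class. Endothelial-like cells had 0 and 3.12 CPM of it. Under DESeq2's Wald test neither was called (DESeq2 adjusted p = 0.0596 for *Col11a1* and 0.0748 for *Col19a1*). *Col19a1* had no UMI in the stromal classes.

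**Figure D4:**
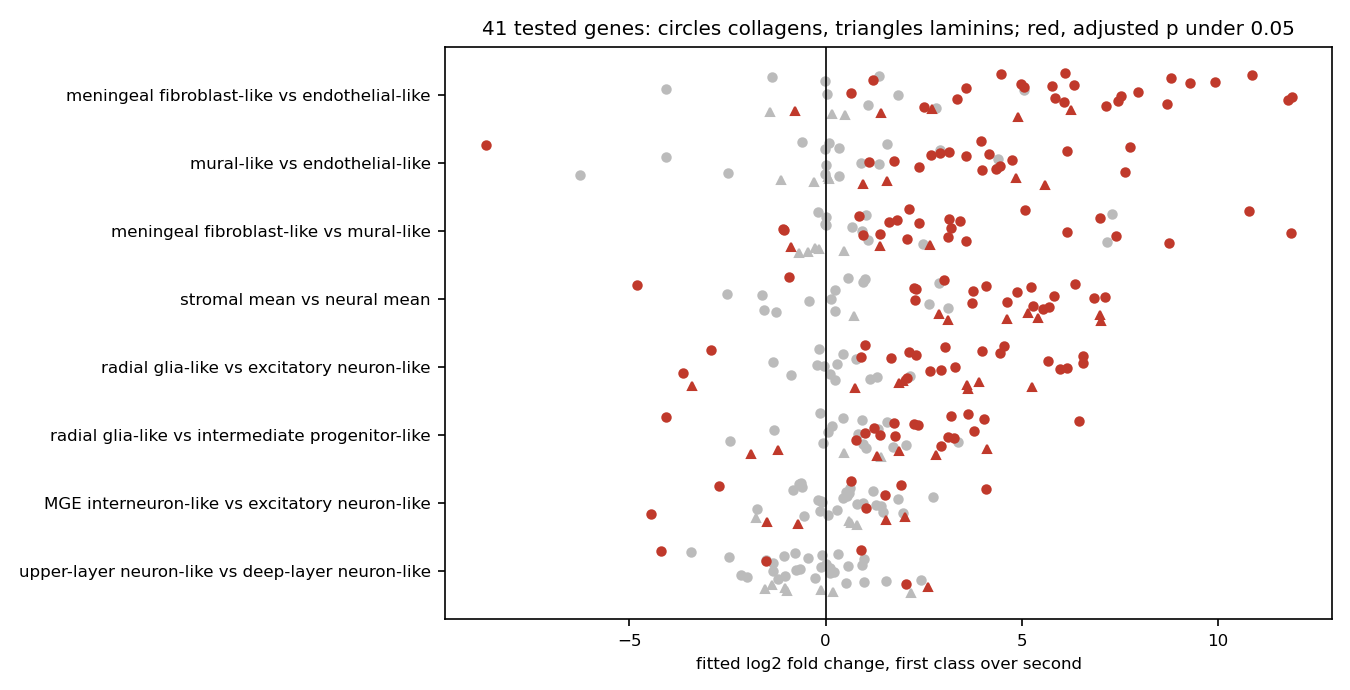
Fitted log2 fold change of the 41 tested genes in the 8 comparisons, with circles for collagens, triangles for laminins and red for genes called at an adjusted p under 0.05. Red points lie mainly above 0 in the stromal and radial glia comparisons and on both sides of 0 in the neuron comparisons, and the most extreme points belong to genes with no UMI in 1 class, whose fitted value depends on the prior count.

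Radial glia, the stem cells of the ventricular zone, were compared with excitatory neurons (averaged over both layer classes on the log scale) to find the matrix genes of progenitors. Of the 41 genes, 25 were higher in radial glia-like cells (18 collagens and 7 laminins) and 3, *Lamb1*, *Col15a1* and *Col6a1*, were lower. Over all genes 26.5% were higher and 29.9% lower. The median was 1.97 for the 41 genes and -0.10 for all genes, or 0.01 for all genes with DESeq2's scaling factors. Of these 28 calls, 25 were of genes that in the higher class lay above the erythroid-like level in both libraries, or 21 with the CPM of each sum divided by its TMM factor, the scaling factor that edgeR uses in the fit (*Lamb1*, *Lamb2*, *Col4a4* and *Col23a1* were then no longer above). These factors were 0.25 and 0.256 for erythroid-like cells, so that the division raises their levels about 4 times. *Col13a1* was among the genes higher in both radial glia comparisons with UMIs from 1 of 382 radial glia-like cells of replicate 2 and no UMI in replicate 1, and DESeq2's Wald test made neither call (DESeq2 adjusted p = 0.66 and 0.767). *Col6a1* was not called under 7 of the alternatives, DESeq2's Wald test among them (DESeq2 adjusted p = 0.0723).

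*Col22a1*, a fibril-associated collagen known from tissue junctions, led the radial glia-like class with 83 and 75.7 CPM. Upper-layer neuron-like cells had 0.383 and 0.37 CPM and deep-layer neuron-like cells 1.29 and 1.08 CPM, and the log2 fold change was 6.56 ± 0.31 (SE, edgeR adjusted p = 2e-21). It was seen in 38.4% and 28.5% of radial glia-like cells, or 8.8% and 9.42% at 1500 UMIs per cell, and in 0.297% and 0.245% of upper-layer neuron-like cells, and 52.4% and 46.6% of its UMIs lay in the radial glia-like class. *Col2a1*, best known as the collagen of cartilage, read 33.8 and 40.2 CPM in radial glia-like cells, 2.25 and 1.68 CPM in meningeal fibroblast-like cells and 0.255 and 0.278 CPM in upper-layer neuron-like cells. No other class held it above 6.6 CPM, and its log2 fold change over neurons was 6.56 ± 0.44 (SE, edgeR adjusted p = 4.5e-16). *Col12a1*, a fibril-associated collagen, read 69.9 and 20.1 CPM in meningeal fibroblast-like cells, which overlapped radial glia-like cells. The meningeal UMIs came from 6 of 33 and 8 of 64 cells, and 1 cell gave 41.9% and 33.3% of them. In radial glia-like cells *Col12a1* stood at 52.2 and 49.7 CPM against 0.128 and 0.555 CPM in upper-layer and 7.76 and 8.11 CPM in deep-layer neuron-like cells, and the log2 fold change was 4.55 ± 0.33 (SE, edgeR adjusted p = 3.4e-15).

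The type IV pair of radial glia-like cells was *Col4a5* and *Col4a6*. *Col4a5* exceeded neurons by a log2 fold change of 6.16 ± 0.32 (SE, edgeR adjusted p = 9.5e-20) and *Col4a6* by 5.96 ± 0.41 (SE, edgeR adjusted p = 2.7e-15). *Col4a2* was not called between radial glia-like cells at 8.71 and 9.07 CPM and neurons at 5.36 and 6.66 CPM in the upper-layer and 10.3 and 10.3 CPM in the deep-layer class (log2 fold change -0.05 ± 0.29 SE, edgeR adjusted p = 0.904). Erythroid-like cells read 2.15 and 3.57 CPM, and the part of free RNA in these levels was not tested. Divided by TMM factors, *Col4a2* of erythroid-like cells was 8.61 and 14.0 CPM. This was above radial glia-like cells, at 7.17 and 7.5 CPM, and upper-layer neuron-like cells, at 5.15 and 6.41 CPM, so that the order turned. Deep-layer neuron-like cells, at 9.93 and 9.8 CPM, lay above the erythroid-like class in replicate 1 only. *Col4a4*, whose product joins those of *Col4a3* and *Col4a5* in kidney and inner ear, read 9.73 and 15.8 CPM in radial glia-like cells and 2.16 CPM or less in both neuron classes (log2 fold change 3.29 ± 0.47 SE, edgeR adjusted p = 9.3e-08). *Col5a2* at 37.4 and 28 CPM was the leading type V chain of radial glia-like cells and exceeded neurons by 2.67 ± 0.25 (SE, edgeR adjusted p = 4.8e-12).

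The beta chains of laminin differed in opposite directions. *Lamb2* read 17.9 and 22.5 CPM in radial glia-like cells and under 1 CPM in both neuron classes, a log2 fold change of 5.25 ± 0.46 (SE, edgeR adjusted p = 7.5e-13). *Lamb1* read 1.02 and 1.58 CPM in radial glia-like cells, 12.8 and 11.8 CPM in upper-layer and 14.2 and 12.4 CPM in deep-layer neuron-like cells, and the log2 fold change was -3.40 ± 0.44 (SE, edgeR adjusted p = 9.7e-09). Both neuron classes lay above the 0 and 3.57 CPM of erythroid-like cells, and radial glia-like cells lay below it in replicate 2. Divided by TMM factors, *Lamb1* of erythroid-like cells in replicate 2 was 14.0 CPM, above the 11.3 and 11.9 CPM of upper-layer and deep-layer neuron-like cells, so that the order turned there. *Lamb2* was seen in 14.4% and 13.9% of radial glia-like cells and 0.0989% and 0.245% of upper-layer neuron-like cells. Other laminins were higher in radial glia-like cells, with *Lama2* at 59.9 and 47.7 CPM (log2 fold change 3.91 ± 0.30 SE, edgeR adjusted p = 8.2e-15) and *Lamc1* at 48.2 and 41.8 CPM (log2 fold change 0.74 ± 0.19 SE, edgeR adjusted p = 0.00081). *Lama5*, though low, had its highest level of any class here at 3.59 and 6.7 CPM (log2 fold change 3.60 ± 0.71 SE, edgeR adjusted p = 3.8e-05).

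IPCs arise from radial glia and divide away from the ventricle. Compared with IPC-like cells, radial glia-like cells were higher in 20 of the 41 genes (16 collagens and 4 laminins) and lower in 3, *Lama2*, *Lamb1* and *Col14a1*. Over all genes 19.6% were higher and 15.6% lower, and the medians were 1.39 for the 41 genes and 0.02 for all genes, or 0.13 for all genes with DESeq2's scaling factors. Of the 23 calls, 20 were of genes that in the higher class lay above the erythroid-like level in both libraries. On CPM divided by TMM factors this held for 16. *Col13a1*, *Col1a2* and *Col4a1* were not above it on either scale. *Lamb1*, *Lamb2*, *Col4a4* and *Col23a1* were no longer above it after the division. With doublets left in, *Lamb1* was not called (edgeR adjusted p = 0.0558). *Lama2* read 136 and 100.3 CPM in IPC-like cells, its highest neural level, against 59.9 and 47.7 CPM in radial glia-like cells (log2 fold change -1.20 ± 0.18 SE, edgeR adjusted p = 5.7e-07). DESeq2's Wald test gave the same direction without a call (DESeq2 adjusted p = 0.158). It was seen in 27.9% and 25.3% of IPC-like cells and 21.8% and 16.8% of radial glia-like cells, or in 11.7% and 9.56% and in 6.48% and 6.02% at 1500 UMIs per cell, and IPC-like cells held 43.6% and 35.2% of all its UMIs. *Col14a1*, a fibril-associated collagen, read 12.1 and 11.5 CPM in IPC-like and 1.02 and 0.394 CPM in radial glia-like cells, higher in IPC-like cells by 17.6-fold (95% counting interval 5.81 to 87.1, 79 UMIs against 3, edgeR adjusted p = 3.6e-05).

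Several genes of radial glia-like cells were lower in IPC-like cells by different amounts. *Col2a1* read 2.55 and 2.51 CPM (log2 fold change 3.77 ± 0.41 SE, edgeR adjusted p = 1e-09, radial glia over IPC) and *Col12a1* 3.19 and 4.47 CPM (log2 fold change 3.63 ± 0.38 SE, edgeR adjusted p = 2.2e-10). *Col22a1* stood at 11.5 and 20.1 CPM (log2 fold change 2.26 ± 0.25 SE, edgeR adjusted p = 6.5e-10). *Col4a6* read 3.19 and 2.51 CPM (log2 fold change 3.13 ± 0.36 SE, edgeR adjusted p = 4.5e-09) while its neighbour *Col4a5* was at 19.4 and 13.1 CPM (log2 fold change 1.77 ± 0.22 SE, edgeR adjusted p = 1.9e-08). *Lamb2* read 3.82 and 1.68 CPM in IPC-like cells (log2 fold change 2.81 ± 0.44 SE, edgeR adjusted p = 1.6e-06). *Col11a1* was lower in IPC-like cells in replicate 1 and higher in replicate 2, with 68.1 and 54.4 CPM in radial glia-like and 63.4 and 64.6 CPM in IPC-like cells, and it was not called (log2 fold change -0.14 ± 0.16 SE, edgeR adjusted p = 0.543).

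Among neurons the levels were low and the calls fewer. MGE interneuron-like cells were set against excitatory neurons because the study concerns both lineages. Of the 41 genes, 7 were higher (*Col11a1*, *Col5a2*, *Col25a1*, *Col14a1*, *Col19a1*, *Lama1* and *Lama4*) and 4 lower (*Col9a1*, *Col15a1*, *Lamb1* and *Lamc1*) in MGE interneuron-like cells, shares near those of all genes, of which 15.3% were higher and 14.7% lower. The medians were 0.59 for the 41 genes and -0.01 for all genes. DESeq2's Wald test did not call *Col14a1* or *Col9a1* (DESeq2 adjusted p = 0.0681 and 0.112). When likely doublets were left in, 26 were higher and 2 lower. Of the 11 calls, 6 were above the erythroid-like level on CPM divided by TMM factors, and *Col25a1*, *Col5a2*, *Lama4*, *Lamb1* and *Lamc1* were not. The doublets removed from this class, 16 and 71 cells, held 1056 and 1830 CPM of the 55 genes, and with them *Col3a1* in the class read 6.38 and 47.5 CPM in place of 1.13 and 4.28 CPM.

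*Col19a1*, a fibril-associated collagen, was the firmest of the 7. It read 16.1 and 12.2 CPM in MGE interneuron-like cells, 0.255 and 0.278 CPM in upper-layer and 1.29 and 2.16 CPM in deep-layer neuron-like cells, and the log2 fold change was 4.09 ± 0.44 (SE, edgeR adjusted p = 1.9e-09). Radial glia-like cells also held it, at 23.1 and 17 CPM, and IPC-like cells had 1 UMI in all, so that radial glia-like cells exceeded them by 132-fold (95% counting interval 23 to 5260.2, 88 UMIs against 1, edgeR adjusted p = 2.9e-09). Few cells carried the transcript, 3.69% and 2.33% of MGE interneuron-like and 2.78% and 2.36% of radial glia-like cells, and in the latter 1 cell gave 40.0% and 23.3% of the UMIs of its library. No UMI of it was found in the meningeal, mural-like, endothelial-like, microglia-like, Cajal-Retzius-like or erythroid-like class. *Col25a1*, a transmembrane collagen of neurons, read 14.6 and 5.59 CPM in MGE interneuron-like cells and 5.95 CPM or less in both excitatory classes (log2 fold change 1.52 ± 0.38 SE, edgeR adjusted p = 0.00162). In replicate 2 the MGE class lay below the deep-layer class, and 1 cell gave 48.7% and 41.2% of the *Col25a1* UMIs of the MGE class. Its highest levels were in striatal neuron-like cells, at 70.6 and 34.7 CPM, and meningeal fibroblast-like cells, at 49.6 and 57.1 CPM, which overlapped.

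*Col11a1* was the leading collagen of the upper-layer, deep-layer and MGE classes. It stood at 48.8 and 38.8 CPM in MGE interneuron-like, 41.9 and 34.7 CPM in striatal neuron-like, 35.3 and 35.4 CPM in upper-layer and 21.3 and 17.3 CPM in deep-layer neuron-like cells. The erythroid-like class read 0 and 3.57 CPM, below each of these. MGE interneuron-like cells were above excitatory neurons by 0.66 ± 0.17 (SE, edgeR adjusted p = 0.0024). *Lamb1* and *Lamc1* went the other way, with *Lamb1* at 2.63 and 6.58 CPM in MGE interneuron-like cells (log2 fold change -1.49 ± 0.30 SE, edgeR adjusted p = 0.0001) and *Lamc1* at 9.75 and 19.4 CPM (log2 fold change -0.71 ± 0.23 SE, edgeR adjusted p = 0.0153). With doublets left in neither was called (edgeR adjusted p = 0.157 and 0.0711).

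Upper-layer and deep-layer neuron-like cells differed in 5 of the 41 genes, 3 higher (*Col11a1*, *Col9a3* and *Lama2*) and 2 lower (*Col12a1* and *Col23a1*) in the upper-layer class, where 5.34% of all genes were higher and 8.57% lower. The medians were -0.28 for the 41 genes, or -0.66 with 2 genes at their bound, and 0.03 for all genes. Of the 3, *Col11a1* alone was called higher by DESeq2's Wald test, which gave 1 higher and 4 lower (DESeq2 adjusted p = 0.128 for *Col9a3*). On CPM divided by TMM factors *Col11a1* and *Col9a3* alone of the 5 lay above the erythroid-like level in the higher class in both libraries. *Col9a3*, a chain of the fibril-associated type IX collagen, read 21.9 and 19.7 CPM in upper-layer and 5.82 and 4.32 CPM in deep-layer neuron-like cells (log2 fold change 2.05 ± 0.46 SE, edgeR adjusted p = 0.001). It was seen in 13.5% and 11.1% of upper-layer neuron-like cells, and the other chains of its trimer were far lower there, with 2.3 and 1.39 CPM of *Col9a1* and 1.79 and 1.67 CPM of *Col9a2*. *Col11a1* was higher in the upper-layer class by 0.89 ± 0.22 (SE, edgeR adjusted p = 0.00332). *Col12a1* at 0.128 and 0.555 CPM in upper-layer and 7.76 and 8.11 CPM in deep-layer neuron-like cells was lower (log2 fold change -4.19 ± 0.65 SE, edgeR adjusted p = 4e-06). In replicate 1, 3 of the 190 deep-layer neuron-like cells had *Col12a1*, and 1 of them gave 75% of its UMIs. *Col23a1* was also lower, at 1.91 and 2.41 against 8.41 and 4.86 CPM (log2 fold change -1.53 ± 0.44 SE, edgeR adjusted p = 0.0131). In Cajal-Retzius-like cells *Col23a1* read 79.2 and 43.6 CPM, with 83.3% of the UMIs of replicate 1 from 1 cell.

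Ratios between chains were taken within a sum, where scaling cancels, first for chains that assemble together. *Col4a1* and *Col4a2* build a trimer of 2 of the first and 1 of the second chain, and the ratio of their UMIs was 2.09 and 1.73 in meningeal fibroblast-like, 1.94 and 1.89 in mural-like and 1.11 and 1.32 in endothelial-like cells. Endothelial-like cells lay below the other 2 classes in both libraries. *Col4a5* to *Col4a6* was 1.34 and 1.64 in meningeal and 2.02 and 2.33 in radial glia-like cells. Type I collagen has 2 chains from *Col1a1* for each from *Col1a2*, and *Col1a2* to *Col1a1* in meningeal cells was 1.91 and 1.81. *Col6a1* to *Col6a2*, which share the type VI trimer with another chain, was 1.6 and 1.03 in meningeal cells. UMI ratios of different genes also carry any difference in capture of their 3' ends. For beta and alpha chains that take the same place in a laminin, *Lamb1* to *Lamb2* was 6.62 and 8.65 in meningeal, 8.73 and 15.9 in mural-like and 0.0571 and 0.0702 in radial glia-like cells, so that the leading beta chain was *Lamb1* in the first 2 and *Lamb2* in the last. *Lama4* to *Lama1* was 0.708 and 0.545 in meningeal, 13.7 and 4.89 in mural-like and 5.52 and 7.81 in endothelial-like cells.

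**Figure D5:**
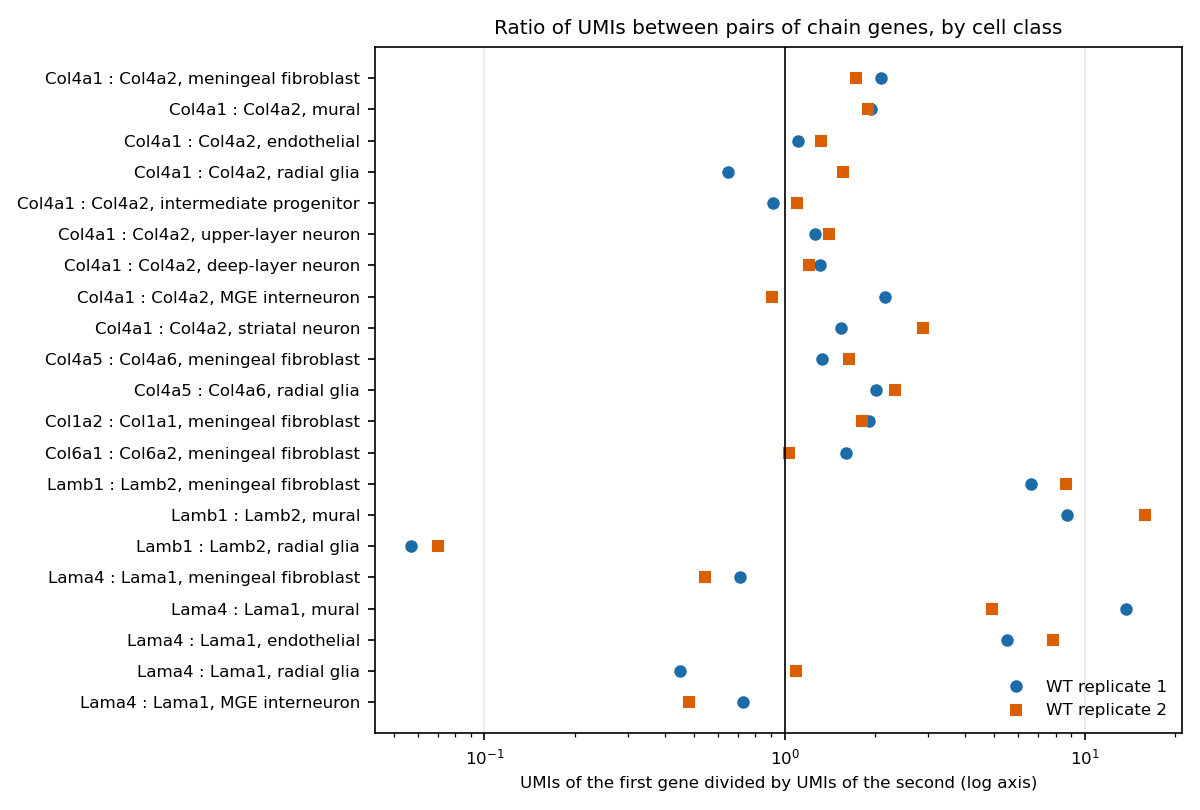
Ratios of UMIs between 2 chains within the same class and library, on a log axis, with 1 point per library, for 6 pairs of genes in the classes with at least 10 UMIs of the second gene and 20 of both in each library. *Col4a1* to *Col4a2* lies between 1.73 and 2.09 in meningeal and mural-like cells and between 1.11 and 1.32 in endothelial-like cells, and *Lamb1* to *Lamb2* lies between 6.62 and 15.9 in meningeal and mural-like cells and at 0.0571 and 0.0702 in radial glia-like cells.

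Genes that work with collagens and laminins were counted in the same fits from 4 lists, of which 18 of 19 basement membrane partners, 16 of 20 receptors, 31 of 33 collagen processing genes and 15 of 16 degradation genes entered the tests. Between stromal and neural classes, 21 processing genes were higher and 3 lower (median log2 fold change 1.72), 10 partners were higher and 2 lower (median 2.54), 7 receptors were higher and 2 lower (median 1.12, with 11 higher by DESeq2), and 9 degradation genes were higher and 4 lower (median 1.71), where 21.3% of all genes were higher and 32.6% lower. *Serpinh1*, the chaperone that folds procollagen, averaged 807 against 34.1 CPM (log2 fold change 5.34 ± 0.09 SE, edgeR adjusted p = 5.2e-37). Nidogen, which links laminin to type IV collagen, showed the same direction for *Nid1* at 349 against 2.86 CPM (log2 fold change 7.42 ± 0.16 SE, edgeR adjusted p = 2.5e-32). In the meningeal against endothelial comparison 19 processing genes were higher and 2 lower (median 1.36) and 7 partners were higher and 5 lower (median 0.52), where 10.7% of all genes were higher and 9.14% lower. In the mural against endothelial comparison 8 processing genes were higher and 4 lower (median 0.44) and 6 partners were higher and 9 lower (median -0.98), where 7.18% of all genes were higher and 7.71% lower.

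Single partners divided the stromal classes. *Lox*, which cross-links collagen, read 176 and 146 CPM in meningeal and 0 and 2.31 CPM in mural-like cells, a ratio of 118-fold (95% counting interval 21 to 4705, 165 UMIs against 1, edgeR adjusted p = 1.5e-08). *Mmp9*, a gelatinase, read 554 and 308 CPM in mural-like cells and 0 in meningeal and endothelial-like cells, at least 139-fold higher than in endothelial-like cells (edgeR adjusted p = 2.8e-14). *Vwa1*, a basement membrane protein that binds perlecan, read 516 and 599.7 CPM in endothelial-like cells and 0 in mural-like cells, at least 142-fold lower (edgeR adjusted p = 9.2e-18). Among receptors, 6 were higher and 5 lower in meningeal against endothelial-like cells (median 0.05), where 10.7% of all genes were higher and 9.14% lower. The collagen-binding integrin chain *Itga1* read 1300.0 and 1148 CPM in mural-like and 56.4 and 87.3 CPM in meningeal cells (log2 fold change -3.86 ± 0.18 SE, edgeR adjusted p = 7.2e-20). The laminin-binding chain *Itga6* read 135 and 197 CPM in endothelial-like and 115 and 85.6 CPM in mural-like cells (log2 fold change -0.87 ± 0.24 SE, edgeR adjusted p = 0.00777). *Itga11*, another collagen-binding chain, read 54.1 and 82.2 CPM in meningeal cells and 0 in endothelial-like cells, at least 23.7-fold higher (edgeR adjusted p = 1.1e-07).

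Radial glia-like cells exceeded neurons in 11 of the partners and 11 of the receptors (medians 1.43 and 1.58), and in 18 processing genes with 2 lower (median 1.04), where 26.5% of all genes were higher and 29.9% lower. No partner or receptor was lower by edgeR, also at an unadjusted p under 0.05, or by DESeq2. Of the degradation genes 5 were higher and 4 lower (median 0.40). *Tnc*, the matrix protein tenascin of the ventricular zone, read 882 and 942 CPM in radial glia-like and 1.28 and 3.98 CPM in upper-layer neuron-like cells (log2 fold change 8.0 ± 0.24 SE, edgeR adjusted p = 1.1e-27). *Itga2*, a collagen-binding integrin chain, read 19 and 25.6 CPM in radial glia-like cells (log2 fold change 4.04 ± 0.43 SE, edgeR adjusted p = 1.6e-10). The collagen prolyl hydroxylase *P4ha3* read 33.8 and 32.3 CPM there and at most 5.03 CPM in all other classes (log2 fold change 5.11 ± 0.42 SE, edgeR adjusted p = 1.2e-13 over neurons). Against IPC-like cells, 9 partners were higher and 1 lower, 16 processing genes were higher and 3 lower, 5 degradation genes were higher and 1 lower and 8 receptors were higher (medians 0.91, 0.78, 0.51 and 1.36), where 19.6% of all genes were higher and 15.6% lower. DESeq2 called 0 partners and 1 processing gene lower, in place of 1 and 3. No receptor was lower here by edgeR, also at an unadjusted p under 0.05, or by DESeq2. *Adamts3*, which trims procollagen and acts on reelin, was highest in deep-layer neurons and overlapped between upper-layer neurons and radial glia, at 76.1 and 87.1 CPM in upper-layer and 194 and 238 CPM in deep-layer neuron-like cells against 90.7 and 83.2 CPM in radial glia-like (log2 fold change -0.83 ± 0.14 SE, edgeR adjusted p = 1.2e-06) and 15.8 and 11.2 CPM in MGE interneuron-like cells (log2 fold change -3.39 ± 0.19 SE, edgeR adjusted p = 5e-19). *Adgrg1*, a receptor for type III collagen whose loss breaches the pial membrane, was lower in stromal than in neural classes, averaging 6.36 against 47.4 CPM (log2 fold change -2.64 ± 0.29 SE, edgeR adjusted p = 3.7e-10).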

How the data were processed

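The deposited files hold raw counts, that is, UMI counts per gene and barcode that the authors made with Cell Ranger on mm10 (version 7.1.0 per the file headers, 7.0.0 per the submitters' processing notes), with no normalization, for 32285 genes in 2 libraries. From them, cells with 1500 to 60000 UMIs and under 10% mitochondrial UMIs were kept, and each library's likely doublets, by Scrublet scores from scanpy 1.11.5, were removed at 0.8% for every 1000 barcodes. Erythroid-like cells had at least 10% globin UMIs. Other classes needed 3 to 5 of 8 markers (Cajal-Retzius-like and excitatory 4, radial glia-like 5), more than of competing lists, and limits on neuronal markers (at most 3 of 16 for the meningeal, endothelial, mural and microglia gates). UMIs were summed per library and class, which gave 24 sums.

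All 12 classes were fitted together with edgeR 4.0.16 (R 4.3.3), with TMM scaling, a minimum of 10 counts in 2 or more sums (14912 genes), class and library as terms, and Benjamini-Hochberg adjustment over all genes tested. The library served as a block because each library gave 1 sum to every class, so sums of 1 library share its cells' preparation. DESeq2 1.42.0, scaling factors of DESeq2, no low count filter, fits of the compared classes alone, no block, no doublet removal, stricter gates, no neuronal marker limit, a minimum of 3000 UMIs and each library alone were alternatives, and counts of calls above the erythroid-like level were taken on plain CPM and, chosen after seeing the data, on CPM divided by TMM factors. On data simulated for mural-like against endothelial-like cells (14600 genes), 48% of 100 genes changed by a log2 fold change of 1 and 90.9% of 99 genes changed by 2 were recovered, and 1.43% of calls were false. Counting intervals are exact at 95%, cover counting error only, and take UMIs as independent.

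The genes, marker lists and partner lists were chosen with earlier results of these data known. Genes named were 29 fixed in advance of the fits, the up to 10 called genes of each comparison and direction with the largest change at 10 CPM or more and the same direction in both libraries, and the up to 3 such genes of each partner list, and single genes in a short list of calls were named after their values were seen. Upstream sequences are from RefSeq on GRCm38.p6, the assembly also called mm10, and were searched on both strands with Python 3.11.15. Reads were not analysed here.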

Additional observations from a re-analysis of the deposited data

How the results depend on the processing

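Called genes kept their direction under every alternative in which they stayed called, and the counts of collagen and laminin genes called stayed within 1.5 times under all alternatives but these. With DESeq2's Wald test the genes called lower came to 0 in place of 1 for meningeal against endothelial (1 at an unadjusted p under 0.05) and 0 in place of 2 for stromal against neural (2 at an unadjusted p under 0.05), and upper-layer against deep-layer had 1 higher and 4 lower in place of 3 and 2. Of the partner lists printed above, it called 11 receptors in place of 7 higher and 1 partner in place of 2 lower for stromal against neural, 1 processing gene in place of 2 lower for meningeal against endothelial, and 0 partners and 1 processing gene in place of 1 and 3 lower for radial glia against IPC. With no low count filter 2 genes in place of 1 were lower in the meningeal and in the mural against endothelial comparison. Fitted on the compared classes alone, mural against endothelial gave 12 higher, 0 lower and 12 in all, in place of 20, 1 and 21, as 16 of the genes were then tested (edgeR, with 0 lower also at an unadjusted p under 0.05). With doublets left in, meningeal against mural had 5 lower in place of 3, and MGE against excitatory 26 higher, 2 lower and 28 in all, in place of 7, 4 and 11. Without replicate 2, *Col13a1* had a log2 ratio of 0.0 in the comparisons of radial glia-like with excitatory neuron-like and with IPC-like cells, since replicate 1 had no UMI of it in these classes, against 2.05 and 2.31 without replicate 1. Leaving out a library leaves no replicate among sums, so that only the ratio within the other library was taken, with no test. Of the called genes, 88 log2 ratios lay over 1 SD between libraries from the fitted value and 80 within it without replicate 1, and 97 and 69 without replicate 2. All of these kept their direction, which the *Col13a1* ratios of 0.0 did not. Without the library as a block, the pairing of sums by library, the calls higher and lower in the order of the report were 28 and 1, 20 and 1, 20 and 3, 24 and 2, 25 and 3, 19 and 3, 7 and 4, and 3 and 2, or 29, 21, 23, 26, 28, 22, 11 and 5 in all. Where 1 to 3 UMIs set a ratio, in classes of under 100 cells a library and in some larger ones, depth limits it. Of the called genes, counted in an alternative chosen after seeing the data, those above erythroid-like cells in the higher class with CPM divided by TMM factors came to 4 higher, 2 lower and 6 in all for MGE against excitatory, and to 2 higher, 0 lower and 2 in all for upper-layer against deep-layer, a count of calls that adds no test.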

Other observations

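Cells outside the 12 classes also held collagen and laminin UMIs. Excitatory neurons that could not be split by layer (408 and 624 cells) read 161 and 155 CPM over the 55 genes, GABAergic cells that could not be split (448 and 813) 156 and 203 CPM, and cells that passed no gate (1794 and 3345) 280.3 and 268 CPM. The last held 16% and 16.1% of all collagen and laminin UMIs of their library, including 49.0% and 66.3% of the UMIs of *Col25a1*. Cells removed as likely doublets would have passed the meningeal fibroblast-like gate in 4 and 33 cases, at 5299 and 7158 CPM.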
